A study of Mus musculus with 12 samples.

Results

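The response of the Jaml knockout (KO) mouse kidney to ischemia-reperfusion injury (IRI) was read from the 6 KO arrays among the 12 arrays of the series. The KO IRI group held the 3 arrays whose titles name Jaml KO, IRI and 24 h, and the KO sham group held the 3 arrays of sham-operated Jaml KO kidneys. All 12 samples were kidney total RNA of male mice on the background given as C57/6J. The remaining 6 arrays were wild-type (WT) sham and WT IRI kidneys, 3 each. In the IRI groups the blood supply of both kidneys was closed and released, with a closure of 40 min in the study's design text and of 30 min in its protocol text. Kidneys were taken 24 h after IRI. The time of collection after the sham operation and the age of the mice are not given in the sources used here. The study described 3 independent samples per group, and each array was taken as 1 mouse. The knockout was checked by its authors by western blot and immunohistochemistry. Neither the deleted part of Jaml nor a tissue restriction of the knockout is given in the sources used here. Every mouse of this comparison, sham included, carried the knockout, so the comparison measured the effect of IRI within KO kidneys.

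IRI deprives the tubular epithelium of oxygen and then returns it with the blood. The straight part of the proximal tubule, which takes back solutes with energy from mitochondrial oxidation, is the best known site of damage. Surviving tubule cells are known to switch on secreted and surface injury proteins such as lipocalin 2 and kidney injury molecule 1 and to lose transporters, while leukocytes enter the tissue. Jaml encodes junctional adhesion molecule-like protein, an adhesion receptor known from leukocytes and also reported in epithelia.

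The arrays were 1-colour Agilent mouse arrays, and between 35598 and 38522 of 56605 probes were well above background on each KO array. Levels are given as log2 signal relative to the 75th percentile of the same array, so that 0 is a bright probe of that array. Very low values are often not measured levels. Prm1, at a mean of -6.22 in KO sham, was well above background on 0 of 3 arrays, and Cd3g, at -5.68 in KO IRI, on 2. Levels are set beside each other only within a gene, since probes differ in brightness. All KO arrays lay on 1 slide and all WT arrays on another, so slide and genotype cannot be told apart, whereas KO IRI and KO sham shared a slide. The Jaml probe read -3.54, -2.59 and -3.18 in KO sham and -1.89, -2.70 and -3.0 in KO IRI, against -0.26, -0.26 and -0.44 in WT sham and 0.55, -1.80 and -1.64 in WT IRI. All KO arrays lay below all WT arrays, and the KO groups overlapped (log2 difference 0.57 ± 0.56 (SE), limma adjusted p = 0.61). Whether that probe lies in the deleted part is not known here. Defining transcripts of proximal tubule, thick limb, distal tubule, collecting duct, podocyte and endothelium were well above background on all 6 KO arrays.

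Over all genes, the root mean square deviation from the group mean was 0.331, 0.316 and 0.307 in KO IRI replicates 1, 2 and 3. In KO sham replicates 1, 2 and 3 it was 0.260, 0.296 and 0.205. In single gene lists, other KO arrays stood apart from their group. KO sham replicate 2 had a mean level of 26 interferon-stimulated genes of 0.64, as a mean log2 deviation from each gene's mean over the KO arrays, against -0.11 and -0.06 in the other KO sham arrays. It was also the highest KO sham array for 16 MHC presentation genes (0.79 against -0.05 and -0.13), 17 T and NK cell genes (1.07 against 0.29 and 0.17) and 10 adipocyte genes (1.05 against -0.81 and -0.47). KO IRI replicate 3 was the highest of its group for 22 tubule injury genes, with 1.5 against 0.47 and 0.37. Its adipocyte genes were also the highest of the injured arrays (0.79 against 0.14 and -0.71). The results on these gene groups are therefore given with and without those arrays. For several of the larger gene lists the range of the count over all 26 alternatives is also given. The highest count came from array weights, which weight each array by its fit, unless another source is named. Among the KO arrays these weights were 4.9 for KO sham replicate 3 and between 0.565 and 1.412 for the others, with the lowest for KO IRI replicate 1.

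**Figure D1:**
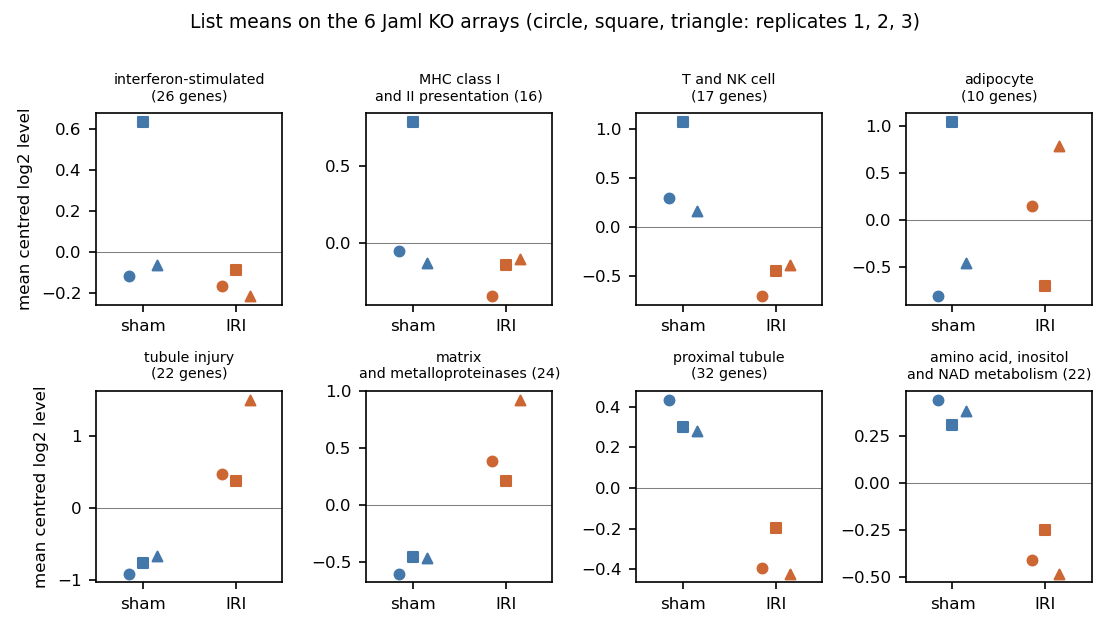
Mean level of 8 gene lists on each of the 6 Jaml KO arrays, as the mean over the list's genes of the log2 level minus the gene's mean over the 6 arrays; sham arrays are blue and IRI arrays orange, and circles, squares and triangles are replicates 1, 2 and 3. The sham square stands at 0.64 for interferon-stimulated genes and 1.05 for adipocyte genes, and the IRI triangle stands at 1.5 for tubule injury genes, whereas the proximal tubule and amino acid lists separate all sham arrays from all IRI arrays.

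Between KO IRI and KO sham, 1598 of 25947 genes passed an adjusted p of 0.05 in limma (percent called 6.16%). Of these, 546 were higher after IRI (2.10% of genes tested) and 1052 were lower (4.05%). All counts of called list members below are to be read beside these shares. At least 2-fold changes were called for 338 higher and 493 lower genes, and at least 4-fold changes for 119 higher and 124 lower genes. The median change over all genes was -0.08 on the log2 scale. Genes at the percentiles 5 and 95 changed by -1.0 and 0.70. The 3 KO IRI and 3 KO sham values did not overlap for 35.7% of genes, higher in 13.9% and lower in 21.8%. An exact permutation test of 3 against 3 arrays cannot give a two-sided p below 0.1, so calls rest on limma's pooled variance. The excess of lower calls depended on scaling: 34.2% of the calls were higher under the 75th percentile, 49.6% under quantile normalization and 59.4% under median scaling, which moved the median of all genes up by 0.14. Leaving out KO sham replicate 1, 2 or 3 left 454, 740 or 510 genes, leaving out KO IRI replicate 1, 2 or 3 left 923, 1024 or 733, and leaving out WT IRI replicate 1, which enters through the pooled variance, gave 3250.

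**Figure D2:**
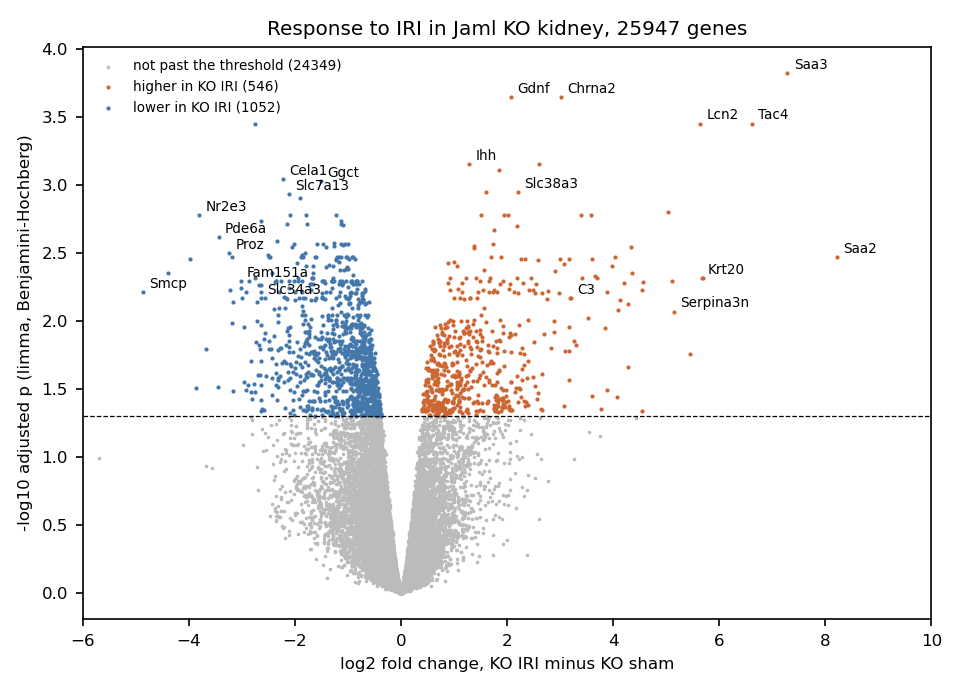
Log2 fold change of KO IRI against KO sham (horizontal) and -log10 of limma's adjusted p (vertical) for each of 25947 genes, with the threshold of 0.05 as a dashed line. The 546 higher genes reach a log2 change of 8.22 for Saa2 and the 1052 lower genes reach -4.87 for Smcp.

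The acute phase genes had the highest median log2 change of the 46 gene lists examined. These genes encode plasma proteins that the liver, and other epithelia, make in inflammation. In KO IRI, 8 of 18 members were higher and 0 were lower, beside 2.10% and 4.05% of all genes, and the list's median log2 change was 2.86 against -0.08 for all genes. Over the alternatives 6 to 12 members were called higher. The higher members were Saa1, Saa2 and Saa3 (serum amyloid A apolipoproteins), Fgg (fibrinogen gamma chain), C3 (complement component 3), Serpina3n (a serine protease inhibitor), Lbp (which binds bacterial lipopolysaccharide) and Lrg1 (a leucine-rich glycoprotein). Saa1, Saa2 and Saa3 lie close together on chromosome 7 in GRCm38.p6. The bases upstream of their starts and of C3 are shown since these genes rose together and their promoters share a short motif. Each line gives the 250 bases before the RefSeq start of the gene (GRCm38.p6), 5′ to 3′ on the gene's strand. Capitals mark matches on either strand to TTGCNNAA, a motif like the binding site of C/EBP factors, and to GGGA N T NN CC read without spaces, a motif like the binding site of NF-kappa-B; overlapping matches would share capitals. The windows are chr7:46742981-46743230 (minus strand) for Saa1, chr7:46751583-46751832 (plus strand) for Saa2, chr7:46715677-46715926 (minus strand) for Saa3 and chr17:57228137-57228386 (minus strand) for C3.
Saa1: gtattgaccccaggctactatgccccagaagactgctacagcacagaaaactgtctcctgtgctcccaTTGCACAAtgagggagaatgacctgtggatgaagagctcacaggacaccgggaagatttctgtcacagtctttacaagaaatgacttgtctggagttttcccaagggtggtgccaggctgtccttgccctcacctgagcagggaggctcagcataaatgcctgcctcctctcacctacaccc
Saa2: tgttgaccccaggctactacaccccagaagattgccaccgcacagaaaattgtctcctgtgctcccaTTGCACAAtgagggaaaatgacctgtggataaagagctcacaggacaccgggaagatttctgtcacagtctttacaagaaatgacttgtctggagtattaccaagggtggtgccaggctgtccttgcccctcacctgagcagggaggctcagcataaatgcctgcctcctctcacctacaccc
Saa3: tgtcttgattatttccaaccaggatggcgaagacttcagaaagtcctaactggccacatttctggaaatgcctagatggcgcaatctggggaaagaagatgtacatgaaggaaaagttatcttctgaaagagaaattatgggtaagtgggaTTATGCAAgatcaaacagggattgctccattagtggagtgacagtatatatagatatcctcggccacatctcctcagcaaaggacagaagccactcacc
C3: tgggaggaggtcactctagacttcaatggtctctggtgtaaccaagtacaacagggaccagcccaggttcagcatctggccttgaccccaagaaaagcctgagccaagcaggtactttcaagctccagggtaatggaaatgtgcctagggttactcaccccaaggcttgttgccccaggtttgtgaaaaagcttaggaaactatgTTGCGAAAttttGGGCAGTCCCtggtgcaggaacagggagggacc
The Saa1 and Saa2 windows matched at 238 of 249 aligned bases (95.6%), with the C/EBP-like match beginning 182 and 183 bases before the start. Saa3 matched Saa1 at 75.1% of 205 aligned bases and held a C/EBP-like match 99 bases before its start. C3 held a C/EBP-like match 45 bases before its start and an NF-kappa-B-like match 33 bases before it. The C/EBP-like letters stood in 4 of the 7 higher acute phase genes with a RefSeq promoter (57.1%) and in 9 of 15 list members with one (60.0%). They stood in 10.8% of 27025 genes of the promoter table, in 12.3% of 351 higher genes and in 12.8% of 690 lower genes with a promoter. The NF-kappa-B-like letters stood in 1 of those 7 genes and in 3.97% of all genes. A match in these windows is a description of letters and not a measured binding site.

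Saa2 read -5.22, -5.31 and -5.95 in KO sham and 3.21, 3.15 and 1.82 in KO IRI. Every injured kidney exceeded every sham kidney by a wide margin (log2 change 8.22 ± 0.99, adjusted p = 0.0034). Saa1 read -2.09, -2.26 and -2.16 in KO sham and 2.86, 2.85 and 1.45 in KO IRI, a log2 change of 4.56 ± 0.65 (adjusted p = 0.0052). Both genes were lowest, among injured kidneys, in KO IRI replicate 3. Since their sequences are near-identical copies of each other, the Saa1 and Saa2 probes may read each other's transcripts, and their separate values are uncertain. Saa3, below the limit for well above background in all sham kidneys of the KO, read -0.36, -0.88 and -1.28 in KO IRI, which made it at least 32.3-fold higher (adjusted p = 0.00015). Such lower bounds rest on the scanner's background subtraction: under normexp background correction, another estimate, the Saa3 log2 change was 2.84 and passed, but lay below the bound, as did the normexp change of every other gene given by a bound in the KO comparison. C3 read 2.44, 3.27 and 2.39 in KO sham and 5.94, 5.88 and 5.90 in KO IRI (log2 change 3.20 ± 0.49, adjusted p = 0.0068). The injured values of C3 were nearly equal, and KO sham replicate 2 was the highest sham array. Serpina3n rose by 5.15 ± 0.83 on the log2 scale (adjusted p = 0.0085), with 2.07 to 5.72 over all alternatives. Fgg rose by 4.28 ± 0.89 (adjusted p = 0.022) and Lbp by 1.36 ± 0.30 (adjusted p = 0.028). The calls of Saa1, Saa2, Saa3, C3 and Serpina3n held without any 1 of the 12 arrays. The call of Lbp was lost without any 1 of the 6 KO arrays (log2 1.23 to 1.44), and that of Fgg without any of them except KO sham replicate 2 (log2 changes of 4.09 to 4.65 over all left-out arrays).

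Of 22 tubule injury genes, 5 were higher and 0 lower, and 14 had injured values wholly above the sham values, beside 13.9% of all genes. Lcn2 (lipocalin 2, an iron-siderophore binding protein of injured tubules and neutrophils) read 0.05, 0.20 and 0.34 in KO sham and 5.64, 5.72 and 6.16 in KO IRI. The 3 injured kidneys were close to each other and far from the sham kidneys (log2 change 5.64 ± 0.41, adjusted p = 0.00035). Krt20 (keratin 20, an intermediate filament of urothelium and injured tubule) read -3.46, -3.12 and -2.61 in KO sham and 1.42, 1.75 and 4.66 in KO IRI (log2 change 5.67 ± 0.77, adjusted p = 0.0049). Havcr1 (kidney injury molecule 1) read -4.56, -4.79 and -4.33 in KO sham and -2.27, -0.70 and 2.92 in KO IRI. KO IRI replicate 3 was the highest injured kidney for both genes, and the Havcr1 values of injured kidneys spanned over 5 log2 units. The Havcr1 log2 change was 4.54 ± 1.15 (adjusted p = 0.046). Its call did not hold when any KO sham array, KO IRI replicate 2 or 3, WT IRI replicate 2 or 3, or WT sham replicate 1 or 2 was left out (log2 3.07 to 4.88 there). Timp1 (an inhibitor of metalloproteinases) rose by 3.27 ± 0.60 (adjusted p = 0.014) and Tnfrsf12a (the receptor of the cytokine TWEAK) by 2.04 ± 0.51 (adjusted p = 0.044). Timp1 lost its call without KO sham replicate 1 or 3, and Tnfrsf12a without any KO array, WT IRI replicate 3 or WT sham replicate 1 or 2 (log2 changes of 1.83 to 2.28 over all left-out arrays). Without KO IRI replicate 3, 3 injury genes were called higher and the list median was 0.52 in place of 0.63. Without KO sham replicate 2 the values were 3 genes and 0.75, and without KO sham replicate 1 or 3 the list had 2 called genes. It had 10 under quantile normalization or the authors' values, 9 under median scaling and 10 without WT IRI replicate 1, with 2 to 12 over all alternatives. Havcr1 also lost its call under normexp background correction (3.15) and with the 6 KO arrays alone.

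Other large rises were those of Tac4, Lgi2, Vgf, Cyp2b9 and Cyp2b10. Tac4 (the tachykinin precursor of hemokinin) read -7.02, -5.58 and -6.25 in KO sham and -0.12, 0.41 and 0.72 in KO IRI, and rose by 6.62 ± 0.49 (adjusted p = 0.00035). It was well above background on 1 of 3 sham arrays and on all injured arrays. The Tac4 log2 change ranged from 3.72 to 6.97 over all alternatives. Lgi2, which encodes a secreted protein of the LGI family, rose by 5.04 ± 0.49 (adjusted p = 0.0016), and its other probes by 5.36 and 3.81. Vgf (a neuropeptide precursor) was at least 4.71-fold higher (adjusted p = 0.0059), but its other probe changed by 0.16 (adjusted p over probes = 0.90). Cyp2b9 and Cyp2b10, related cytochromes P450 of drug and steroid oxidation, rose by 4.36 ± 0.58 and 4.21 ± 0.60 (adjusted p = 0.0044 and 0.0053). Whether their probes read each other's transcripts was not checked. Cyp2d22, another cytochrome P450, had one of the smallest p of the rises and rose by 1.86 ± 0.16 (adjusted p = 0.00077).

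Several of the rises with the smallest p were smaller in size. Gdnf (glial cell line-derived neurotrophic factor, a ligand of the Ret receptor) read -6.12, -6.16 and -6.38 in KO sham, not well above background on any of them, and -3.92, -4.34 and -4.15 in KO IRI, and was at least 3.28-fold higher (adjusted p = 0.00023). Chrna2 (a nicotinic acetylcholine receptor subunit) read -1.86, -2.28 and -2.14 in KO sham and 1.17, 0.86 and 0.72 in KO IRI (log2 change 3.01 ± 0.20, adjusted p = 0.00023). Slc38a3 (a glutamine transporter of the proximal tubule that serves ammonia formation) read 1.58, 1.61 and 1.52 in KO sham and 3.74, 3.72 and 3.88 in KO IRI (log2 change 2.20 ± 0.20, adjusted p = 0.0011). For each of these genes the distance between the groups was several times the spread within them. Ihh (Indian hedgehog, a secreted ligand) rose by 1.29 ± 0.11 (adjusted p = 0.00070), and Galnt17 (a glycosyltransferase) was at least 1.39-fold higher (adjusted p = 0.00070). Entpd1 (CD39, which breaks down extracellular ATP) rose by 1.61 ± 0.15 (adjusted p = 0.0011), while its other probes changed by 1.76 and 0.29 (adjusted p over probes = 0.0038 and 0.89). All the calls in this and the preceding paragraph held without any 1 of the 12 arrays. Under normexp background correction the calls of Vgf and Galnt17 were lost (log2 changes of 0.96 and 0.13), and that of Gdnf held with 0.39, below their bounds.

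**Figure D3:**
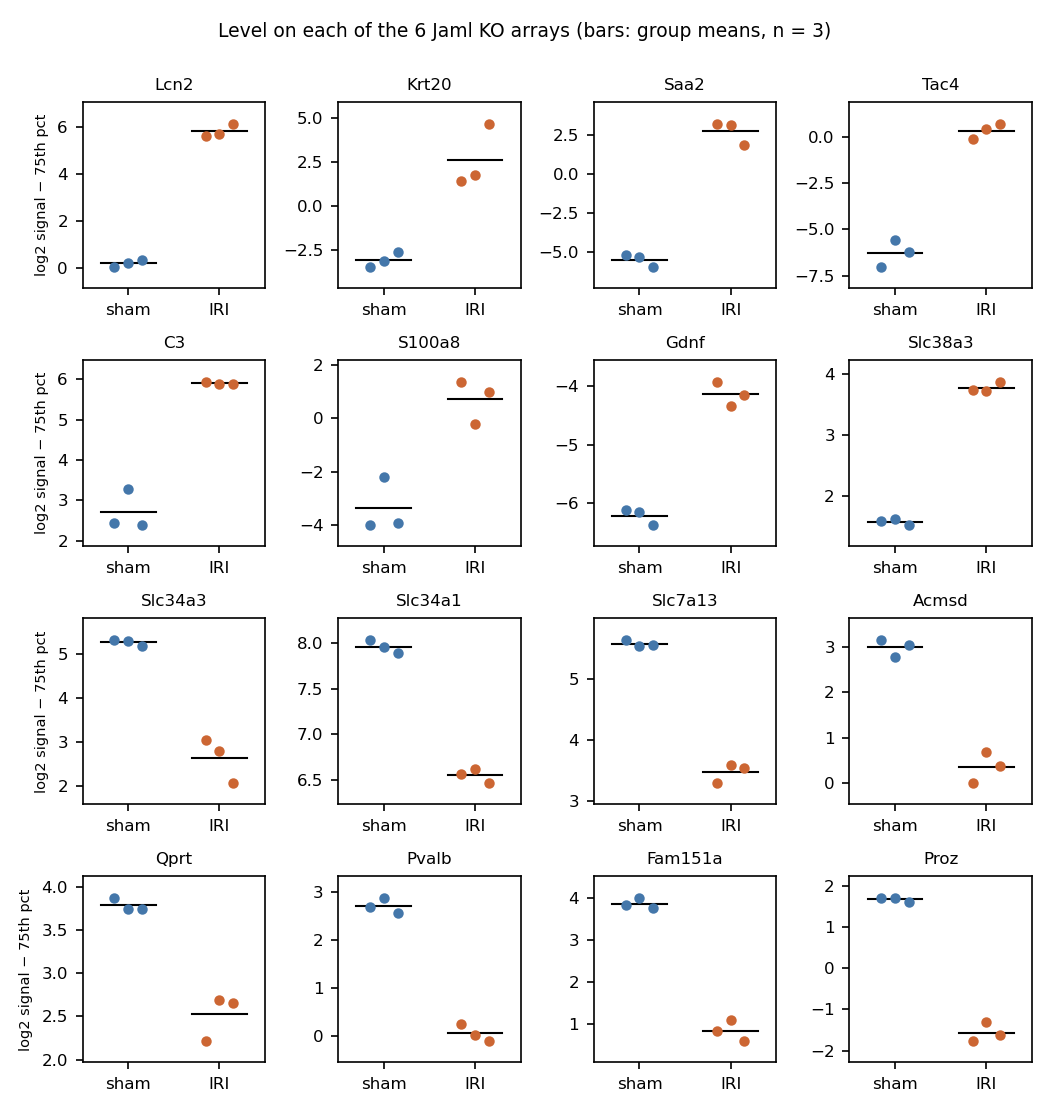
Log2 level relative to the array's 75th percentile for 16 genes on each of the 6 Jaml KO arrays, sham in blue and IRI in orange, with replicates 1 to 3 from left to right and the mean of each group (n = 3) as a bar. The groups do not overlap for any of these genes; Krt20 shows 1 injured array at 4.66 above the other two, and C3 and S100a8 show 1 sham array, replicate 2, above the other two.

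Of 32 proximal tubule genes, 13 were called lower after IRI and 0 higher, 23 had injured values wholly below the sham values (beside 21.8% of all genes), and the median log2 change was -0.61. In whole kidney RNA, fewer cells of a type and less RNA per cell cannot be told apart. Slc34a3 (a sodium-phosphate cotransporter) read 5.33, 5.30 and 5.19 in KO sham and 3.06, 2.79 and 2.07 in KO IRI (log2 change -2.63 ± 0.41, adjusted p = 0.0068). Its relative Slc34a1, the main phosphate carrier of the brush border, read 8.04, 7.96 and 7.89 in KO sham and 6.57, 6.62 and 6.47 in KO IRI (-1.41 ± 0.21, adjusted p = 0.0062). In both genes the injured kidneys lay wholly below the sham kidneys. Slc7a13, an aspartate and glutamate carrier, read 5.64, 5.53 and 5.56 in KO sham and 3.29, 3.59 and 3.53 in KO IRI (-2.10 ± 0.19, adjusted p = 0.0012). Slc6a19 (a neutral amino acid carrier), Slc17a3 (an organic anion carrier) and Slc5a11 (a sodium-inositol cotransporter that was outside the list) fell by 1.48, 1.23 and 1.91 on the log2 scale (adjusted p = 0.0062, 0.0017 and 0.0012). The other called members were Lrp2, Cubn and Amn, which form the endocytic receptor complex that takes back filtered proteins, the glucose carrier Slc5a2, the amino acid carriers Slc7a7 and Slc7a9, and the organic ion carriers Slc22a2 and Slc22a8. Slc22a6 and Aqp1, also proximal tubule markers, changed by 0.06 and -0.28 (adjusted p = 0.87 and 0.25). The calls of Slc34a3, Slc34a1, Slc7a13, Slc6a19, Slc17a3 and Slc5a11 held without any 1 array. Slc6a19 and Slc17a3 lost theirs with a replicate block in the 6 KO arrays alone. Over the list, 6, 8 and 11 members were called lower without KO sham replicate 1, 2 and 3, and 8, 12 and 9 without KO IRI replicate 1, 2 and 3; under median scaling 6 were called, and with array weights 22.

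Enzymes that break down amino acids, inositol and tryptophan are housed largely in the proximal tubule. Under 75th percentile scaling their list had the highest share of lower members of the 46 lists. Of 22 members, 13 were lower and 1 higher, with a median of -0.86. Under median scaling the B and plasma cell list had the higher share, with 3 of 10 lower against 5 of 22. Acmsd (which steers tryptophan breakdown away from NAD synthesis) read 3.17, 2.77 and 3.05 in KO sham and 0.00, 0.69 and 0.37 in KO IRI (log2 change -2.64 ± 0.38, adjusted p = 0.0055). Qprt, which makes the NAD precursor nicotinic acid mononucleotide from quinolinate, read 3.87, 3.74 and 3.75 in KO sham and 2.21, 2.69 and 2.66 in KO IRI (-1.27 ± 0.14, adjusted p = 0.0027). The groups of both genes were apart by more than their ranges. Aadat (kynurenine aminotransferase) fell by 1.30 (adjusted p = 0.0090) and Cndp2 (a dipeptidase) by 1.57 (adjusted p = 0.030). Further lower members were Agxt2, Glyat, Dao, Sardh, Prodh2, Miox, Kmo and Haao. Gldc (glycine decarboxylase) rose by 1.08 ± 0.24 (adjusted p = 0.029), and its other probe by 3.01. Acmsd, Qprt and Aadat kept their calls without any 1 array. Gldc lost its call without any 1 of the KO arrays (log2 0.85 to 1.23), and Cndp2 without any of them or WT sham replicate 1 (-1.64 to -1.49). Without KO sham replicate 1, 2 and 3 the list had 6, 8 and 7 lower members, without KO IRI replicate 1, 2 and 3 it had 8, 12 and 7, and under median scaling it had 5, with 3 to 16 over all alternatives, the latter also without WT IRI replicate 1. Cndp2 lost its call under median scaling, and Qprt with the mean of its probes (-1.05).

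Detoxification genes changed in both directions. Ggct (gamma-glutamylcyclotransferase, an enzyme of glutathione breakdown, outside the lists) fell by 1.51 ± 0.13 (adjusted p = 0.00093), with 4.40, 4.44 and 4.27 in KO sham and 2.95, 2.89 and 2.75 in KO IRI. In the list of cytochrome P450 and conjugation enzymes 6 of 19 were lower and 3 higher, beside 4.05% and 2.10% of all genes. Gstt1 (a glutathione transferase) fell by 0.74 ± 0.11 (adjusted p = 0.0062), Ugt2b38 by 1.21 ± 0.21 (adjusted p = 0.011) and Ugt3a1 by 0.90 ± 0.19 (adjusted p = 0.022), both glycosyltransferases that conjugate lipophilic compounds. The fatty acid hydroxylases Cyp4a14 and Cyp4a10 rose by 3.16 ± 0.70 and 1.95 ± 0.40 (adjusted p = 0.027 and 0.021), and their neighbouring copies may share probe signal. Gstt1 kept its call without any 1 array and Ugt2b38 lost it without KO sham replicate 1. Ugt3a1 lost it without any KO array except KO IRI replicate 2 (-0.98 to -0.78), and Cyp4a14 and Cyp4a10 lost it without any KO array (3.06 to 3.23 and 1.79 to 2.10 over all left-out arrays). Without KO sham replicate 1, 2 and 3 the list held 1, 4 and 3 lower members, without KO IRI replicate 1, 2 and 3 it held 3, 5 and 3, and under median scaling it held 3. Its higher members were 0 or 1 without any 1 of the KO arrays. Over all alternatives it held 0 to 9 lower and 0 to 4 higher members, and Gstt1 and Ugt3a1 lost their calls under median scaling.

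Fatty acid oxidation and ketone genes, several of them targets of the receptor PPAR-alpha, were higher in 4 of 20 cases and lower in 0. Of all genes, 2.10% were higher and 4.05% lower. Ehhadh (a peroxisomal oxidation enzyme) rose by 1.51 ± 0.29 (adjusted p = 0.016). The related acyl-CoA thioesterases Acot1 and Acot2, whose probes may share signal, rose by 1.79 ± 0.42 and 1.81 ± 0.40 (adjusted p = 0.035 and 0.028). The calls rested on all arrays: the list had 0 called members without any 1 of the KO sham arrays or KO IRI replicate 1, 1 without KO IRI replicate 2 and 2 without KO IRI replicate 3, against 8 with the 6 KO arrays alone or with array weights.

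Oxidative phosphorylation subunits had small negative changes. All 16 measured members had injured values wholly below sham values, beside 21.8% of all genes, with log2 changes between -0.60 and -0.26 and a median of -0.36. Only Ndufs1 and Ndufb8, complex I subunits, passed the test (-0.59 ± 0.13, adjusted p = 0.030, and -0.44 ± 0.11, adjusted p = 0.043). Their other probes changed by -0.34 and -0.04 (adjusted p over probes = 0.64 and 0.96), and the mean of the probes did not pass for either. The calls were lost under 13 and 19 of the 26 alternatives. Quantile normalization and median scaling left 0 of the 16 called, with a median between -0.42 and -0.22 over the alternatives, while normexp gave 4 called, leaving out WT IRI replicate 1 gave 9 and array weights gave 11. Leaving out any 1 of the KO arrays except KO IRI replicate 2 left 0 called. In gluconeogenesis, G6pc (glucose-6-phosphatase, the last step of glucose release) fell by 2.07 ± 0.43 (adjusted p = 0.021) and was the only called member of 10. It lost its call without KO sham replicate 1 or 3 or KO IRI replicate 1 or 3 (-2.32 to -1.89 over all left-out arrays). Of 21 glycolysis and hypoxia genes 0 passed in limma. The smallest p was that of Bnip3 (a mitochondrial clearance protein induced by hypoxia), with a log2 change of 0.83 and adjusted p = 0.0505. Bnip3 passed under 11 of the 26 alternatives, among them without WT IRI replicate 1 or 2. The list had 3 higher members with the 6 KO arrays alone, and 1 under normexp, quantile normalization or median scaling. In sterol synthesis 3 of 17 were lower, beside 4.05% of all genes. Among them Cyp51 fell by 1.80 ± 0.32 (adjusted p = 0.012) and Idi1 by 1.81 ± 0.42 (adjusted p = 0.033). Cyp51 lost its call without KO sham replicate 1, and Idi1 lost it without any 1 of the KO arrays (-1.89 to -1.68).

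In the thick limb and distal tubule list 4 of 20 genes were lower after IRI and 0 higher. Pvalb (parvalbumin, a calcium buffer of the distal convoluted tubule) read 2.68, 2.87 and 2.55 in KO sham and 0.25, 0.03 and -0.10 in KO IRI (log2 change -2.64 ± 0.45, adjusted p = 0.011). Egf (the epidermal growth factor precursor) fell by 1.21 ± 0.26, Kl (klotho, the co-receptor of fibroblast growth factor 23) by 1.32 ± 0.25 and Calb1 (a calcium-binding protein of the distal tubule) by 0.90 ± 0.22 (adjusted p = 0.024, 0.016 and 0.042). Umod (uromodulin), the defining protein of the thick limb, read a mean of 8.22 in KO sham and 8.09 in KO IRI (adjusted p = 0.60). In the collecting duct 2 of 18 were lower, beside 4.05% of all genes. Slc26a4 (pendrin, a chloride-bicarbonate exchanger) fell by 0.93 ± 0.12 (adjusted p = 0.0034) and Hepacam2 by 0.43 ± 0.10 (adjusted p = 0.031). Among 13 podocyte genes Magi2, a scaffold protein, fell by 0.63 ± 0.13 (adjusted p = 0.019), and its other probes changed by -0.99, -0.48 and 0.73. Among 16 tight junction and polarity genes Cdh16 (kidney cadherin) fell by 0.46 ± 0.11 (adjusted p = 0.033), and its other probe changed by 0.23. Of 18 endothelial genes 0 passed in limma, and the smallest p were those of Icam1 (log2 change 1.27, adjusted p = 0.11) and Pecam1 (0.43, adjusted p = 0.13). Pvalb and Slc26a4 kept their calls without any 1 array. Egf lost its call without any KO sham array or KO IRI replicate 3 (-1.36 to -0.92 over all left-out arrays), Kl without KO sham replicate 1 or 3 or KO IRI replicate 1, and Magi2 without any KO array except KO IRI replicate 3. Calb1, Hepacam2 and Cdh16 lost theirs without any 1 of the KO arrays, and also without WT sham replicate 1 (Calb1), 1 or 2 (Hepacam2) or 2 (Cdh16). The thick limb and distal tubule list held 1, 2 and 1 lower members without KO sham replicate 1, 2 and 3, and 2, 3 and 2 without KO IRI replicate 1, 2 and 3, with 1 to 9 over all alternatives. Median scaling ended the calls of Egf, Calb1, Hepacam2, Magi2 and Cdh16, and quantile normalization those of Calb1 and Cdh16.

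Stress programs were represented by a few genes each. In the integrated stress and unfolded protein response list 6 of 20 were higher and 1 lower. The higher ones were Trib3 and Ddit3, which act below the factor ATF4, the transcription factor Atf5, and the amino acid and folate enzymes Asns, Psat1 and Mthfd2. Asns (asparagine synthetase) read -0.17, -0.09 and -0.10 in KO sham and 1.46, 0.87 and 1.12 in KO IRI (log2 change 1.27 ± 0.22, adjusted p = 0.012). Trib3 (a pseudokinase) rose by 1.94 ± 0.37 (adjusted p = 0.017) and Mthfd2 (mitochondrial folate enzyme) by 1.43 ± 0.27 (adjusted p = 0.014). Phgdh, the first enzyme of serine synthesis, fell by 0.75 ± 0.19 (adjusted p = 0.044), while Psat1, the next enzyme, rose by 1.80 ± 0.43 (adjusted p = 0.038). The promoter of Asns held TGATGNAA, letters like an amino acid response element, 23 bases before its start. It was the only one of the 6 higher genes with such a match, beside 3.91% of all genes. Without KO sham replicate 1, 2 and 3 the list had 0, 2 and 2 higher members, and without KO IRI replicate 1, 2 and 3 it had 3, 6 and 1, with 0 to 9 over all 26 alternatives. Phgdh lost its call without 9 of the 12 arrays (-0.90 to -0.64).

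Of 15 antioxidant genes 3 were higher and 1 lower. Hmox1 (heme oxygenase 1) rose by 2.25 ± 0.52 (adjusted p = 0.032), Srxn1 (sulfiredoxin) by 1.15 ± 0.27 (adjusted p = 0.036) and Nqo1 (a quinone reductase) by 1.1 ± 0.20 (adjusted p = 0.013). Sod2, the mitochondrial superoxide dismutase, read 4.52, 4.2 and 4.35 in KO sham and 3.07, 3.22 and 3.13 in KO IRI (log2 change -1.22 ± 0.15, adjusted p = 0.0036). Sod2 kept its call without any 1 array, whereas the list had 0 higher members without KO sham replicate 1 or 3 or KO IRI replicate 3, and 1 without KO sham replicate 2 or KO IRI replicate 1, against 5 under quantile normalization, median scaling or without WT IRI replicate 1 and 6 with array weights. Of 15 p53 targets Phlda3 and Eda2r were higher, beside 2.10% of all genes. Phlda3 rose by 0.71 ± 0.15 (adjusted p = 0.026), and Eda2r, not well above background in sham, at least 1.55-fold (adjusted p = 0.020). Egr2, an immediate early transcription factor, rose by 2.54 ± 0.57 (adjusted p = 0.030) and was the only called member of 18 AP-1 and immediate early genes, of which 13 had injured values wholly above sham, beside 13.9% of all genes. That list had 0 to 8 higher members over all alternatives, with 4 under quantile normalization or median scaling. Eda2r (0.10) and Egr2 (1.52) lost their calls under normexp background correction. Hspb1 (a small heat shock protein) rose by 1.11 ± 0.27 (adjusted p = 0.040) and was the only called member of 12. Phlda3, Eda2r and Hspb1 each lost their call without any KO sham array or KO IRI replicate 1 or 3, Hspb1 also without WT IRI replicate 3 or WT sham replicate 1 or 2, and Egr2 without KO sham replicate 1 or 3 or KO IRI replicate 1 or 3. Acsl4 (an acyl-CoA synthetase that supplies the lipids oxidized in ferroptosis) read 3.41, 3.25 and 3.33 in KO sham and 4.95, 5.00 and 5.04 in KO IRI. It rose by 1.66 ± 0.25 (adjusted p = 0.0062), kept its call without any 1 array, and was the only called member of 22 cell death genes. Of 20 cell cycle genes 0 passed in limma; Pcna, the replication clamp, changed by 0.38 (adjusted p = 0.21).

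Genes of matrix and its turnover were higher in 5 of 24 cases and lower in 0. Mmp7 (matrilysin) was not well above background in any sham kidney, read -2.17, -2.79 and -1.5 in KO IRI, and was at least 13.0-fold higher (adjusted p = 0.0049). Mmp3 (stromelysin 1) read -4.46, -4.25 and -5.34 in KO sham and -2.37, -2.48 and -1.81 in KO IRI (log2 change 2.46 ± 0.34, adjusted p = 0.0049). Adamts4 (an aggrecan-cleaving protease) rose by 2.88 ± 0.48 (adjusted p = 0.010) and its other probes by 3.99 and 2.36. Col4a2 (a basement membrane collagen) rose by 0.74 ± 0.13 (adjusted p = 0.011). The calls of Mmp7, Mmp3, Adamts4 and Col4a2 held without any 1 array, but that of Mmp7 was lost under normexp background correction, with a log2 change of 1.74. The list held 1 to 13 higher members over all alternatives, and 8 without WT IRI replicate 1. In the TGF-beta list 2 of 18 were higher, beside 2.10% of all genes. Among them Ccn1, a matricellular protein induced early in injury, rose by 1.85 ± 0.34 (adjusted p = 0.014), a call lost without KO sham replicate 1 or 2. Without KO sham replicate 1 or 2 the list had 0 called members. Nrg1, a ligand of ErbB receptors, rose by 2.08 ± 0.46 (adjusted p = 0.028), but lost its call without any 1 of the KO arrays, and its 4 other probes changed by 2.09, 1.62, 0.25 and -0.04.

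Neutrophil genes were higher in 5 of 19 cases and lower in 0. S100a8 and S100a9 form calprotectin, an abundant neutrophil protein. S100a8 read -3.99, -2.20 and -3.92 in KO sham and 1.38, -0.20 and 1.00 in KO IRI (log2 change 4.09 ± 0.66, adjusted p = 0.0082). KO sham replicate 2 was the highest sham kidney, and the groups did not overlap. S100a9 rose by 3.84 ± 0.67 (adjusted p = 0.011), a call lost without KO sham replicate 1 or 3. Stfa2l1 (a neutrophil stefin) and Fpr1 (the formyl peptide receptor) were not well above background in sham, and IRI raised them at least 1.82-fold and 1.81-fold (adjusted p = 0.0062 and 0.021). Fpr1 lost its call without KO sham replicate 2 or 3 or KO IRI replicate 1 or 3. Ly6g, a surface marker of neutrophils, read a mean of 0.15 in KO sham and -0.02 in KO IRI (adjusted p = 0.65). Without KO sham replicate 2 the list had 4 called members and a median of 1.29 in place of 1.09, and without KO sham replicate 3 it had 3 called members. The median was 0.79 without KO sham replicate 1, 0.73 and 0.77 without KO IRI replicate 1 and 3, and 0.19 under normexp background correction, where 3 members were called and Stfa2l1 and Fpr1, with log2 changes of 0.19 and 0.12, were not. Over all alternatives 1 to 10 members were called.

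Macrophage genes changed in both directions. Of 21, 5 were higher and 2 lower, beside 2.10% and 4.05% of all genes. Gpnmb, a lysosomal glycoprotein of lipid-laden macrophages, was well above background on 1 of 3 sham arrays and rose by 2.53 ± 0.38 (adjusted p = 0.0062). Its log2 change ranged from 0.62 to 2.86 over all alternatives. Lgals3 (galectin 3) read 3.50, 3.54 and 3.50 in KO sham and 4.46, 4.34 and 4.76 in KO IRI (log2 change 1.01 ± 0.16, adjusted p = 0.0068). Cd68, a lysosomal marker, rose by 1.93 ± 0.34 (adjusted p = 0.012), Chil3 (a chitinase-like protein) by 1.26 ± 0.32 (adjusted p = 0.048), and the scavenger receptor Msr1 was at least 2.58-fold higher (adjusted p = 0.017). Csf1r, the receptor for macrophage growth factors, read 4.32, 4.33 and 4.23 in KO sham and 3.41, 3.48 and 3.17 in KO IRI (-0.94 ± 0.13, adjusted p = 0.0051), but its other probe changed by -0.03 and the mean of the probes did not pass. Itgam (CD11b) fell by 2.11 ± 0.41 (adjusted p = 0.017), but its other probe changed by 0.17. Adgre1 (F4/80) changed by 0.26 (adjusted p = 0.77). Gpnmb, Lgals3 and Csf1r kept their calls without any 1 array. Cd68 lost its call without KO sham replicate 1 or 3, Msr1 without KO sham replicate 1 or 3 or KO IRI replicate 3, Itgam without KO sham replicate 2, and Chil3 without 9 of the 12 arrays (1.12 to 1.45 over all left-out arrays). The list held 2 higher members without KO sham replicate 1 or 3, 3 without KO IRI replicate 3, and 1 lower member without KO sham replicate 2. It held 8 higher members without WT IRI replicate 1, and 1 to 10 over all alternatives. Under normexp background correction Msr1 lost its call (0.26). Clec4d, a C-type lectin of myeloid cells, read -7.73, -5.66 and -7.56 in KO sham and -2.34, -2.69 and -0.57 in KO IRI (log2 change 5.12 ± 0.72, adjusted p = 0.0051, kept without any 1 array). It was well above background on 1 of 3 KO sham arrays, and its log2 change ranged from 1.92 to 5.90 over all alternatives. Its neighbour Clec4e (Mincle) read -7.90, -7.21 and -8.29 in KO sham, where 0 of 3 arrays were well above background, and -5.62, -6.15 and -5.84 in KO IRI, where 2 of 3 were. The fit passed, but both groups are too near the limit of measurement for a fold (adjusted p = 0.011, lost without KO sham replicate 1).

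A few innate signalling and complement genes rose. Of 18 Toll-like receptor and NF-kappa-B genes 3 were higher: Lbp, and Nfkb2 and Relb, which are subunits of the alternative NF-kappa-B pathway. Nfkb2 rose by 1.11 ± 0.21 (adjusted p = 0.015) and Relb by 1.27 ± 0.27 (adjusted p = 0.025), while the other Relb probes changed by 1.33 and -0.43 and the mean of the probes did not pass. The list had 0 called members without KO sham replicate 1 or 3, 1 without KO IRI replicate 1 or 3, and 2 without KO sham replicate 2 or KO IRI replicate 2, but 7 with the 6 KO arrays alone and 8 without WT IRI replicate 1 or with array weights. In the complement and coagulation list of 25, 3 genes were higher, C3 and C5ar1 among them, beside 2.10% of all genes. Only F5 was lower, a share near the 4.05% of all genes. C5ar1 (the receptor of the complement fragment C5a) rose by 1.85 ± 0.39 (adjusted p = 0.024), a call lost without any KO sham array or KO IRI replicate 2 or 3 (1.41 to 2.20 over all left-out arrays) or under normexp background correction (0.70). The list held 1 to 10 higher members over all alternatives. F5 (coagulation factor V) read 0.85, 1.27 and 0.71 in KO sham and -0.31, -0.25 and -0.70 in KO IRI (log2 change -1.37 ± 0.22, adjusted p = 0.0091, kept without any 1 array). Of 25 cytokine and chemokine genes 1 passed, Cxcl9, a T cell attractant induced by interferon gamma. It read -2.67, -0.24 and -2.59 in KO sham and -5.33, -5.49 and -5.02 in KO IRI, with KO sham replicate 2 the highest, and fell by 3.45 ± 0.78 (adjusted p = 0.031). The call was lost without any 1 of the KO arrays (-3.86 to -2.65) and under normexp background correction (-1.92). Of 16 genes of the interleukin 6 family and its feedback only Il11ra1 passed (-0.60 ± 0.14, adjusted p = 0.034), a call lost without any KO array or WT sham replicate 1, and under quantile normalization or median scaling.

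Of 26 interferon-stimulated genes 0 passed in limma, here and under all 26 alternatives, with a median of -0.33 that was -0.12 without KO sham replicate 2. Of 16 MHC class I and II genes 0 passed, with a median of -0.43 and of -0.22 without that array, and 3 were called lower without WT IRI replicate 1. H2-Eb1, an MHC class II chain, read 4.48, 5.22 and 4.26 in KO sham and 3.44, 3.50 and 3.41 in KO IRI (adjusted p = 0.31). The groups of H2-Eb1 did not overlap although the fit did not pass. All 17 T and NK cell genes had negative log2 changes, between -1.97 and -0.05, and 12 had injured values wholly below sham values (beside 21.8% of all genes). Their median was -1.13, and -0.79 without KO sham replicate 2; 0 were called in the fit of all 12 arrays. With the 6 KO arrays alone 4 were called lower, and without WT sham replicate 3, 8 were, the most over all alternatives. Klrk1 (an activating receptor of NK and T cells) changed by -1.13 (adjusted p = 0.067) and Cd3g (a chain of the T cell receptor complex) by -1.97 (adjusted p = 0.17). Of 10 B and plasma cell genes 3 were lower. Fcer2a (CD23) fell by 1.73 ± 0.32 (adjusted p = 0.015), and Ms4a1 (CD20), not well above background after IRI, was at least 3.13-fold lower (adjusted p = 0.030). Fcer2a lost its call without KO sham replicate 1 or 3, and Ms4a1 without any 1 of the KO arrays. The Fcer2a log2 change ranged from -2.18 to -0.60 over all alternatives.

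Among the largest falls was that of Smcp, a sperm mitochondrial protein gene and the only called member of 6 genes of the male reproductive tract list. It read 1.83, 0.73 and 1.77 in KO sham and -4.38, -3.50 and -2.39 in KO IRI (log2 change -4.87 ± 0.72, adjusted p = 0.0061). Of the other testis genes, Prm2 changed by -0.41 (adjusted p = 0.42) and Prm1 was not well above background in sham. Pde6a, the phosphodiesterase known from rod photoreceptors, read 0.71, 0.72 and 0.52 in KO sham and -2.65, -2.56 and -3.15 in KO IRI (-3.44 ± 0.38, adjusted p = 0.0024). Proz (protein Z, a cofactor in the inhibition of coagulation factor Xa) read 1.69, 1.70 and 1.61 in KO sham and -1.77, -1.31 and -1.63 in KO IRI (-3.24 ± 0.38, adjusted p = 0.0032). Fam151a read 3.83, 4.01 and 3.77 in KO sham and 0.85, 1.09 and 0.61 in KO IRI (-3.02 ± 0.42, adjusted p = 0.0051). In Pde6a, Proz and Fam151a the sham values were close together and the groups far apart. Genes that were no longer well above background after IRI were Apol7c (at least 6.30-fold lower), Henmt1 (at least 7.12-fold), Spry3 (at least 5.44-fold), Otop3 (at least 5.30-fold), Alkal2 (at least 4.06-fold) and Nr2e3 (at least 3.86-fold), with adjusted p between 0.0017 and 0.031. Gas2 (a cytoskeletal protein) fell by 2.08 ± 0.21 and Ano4 (an anoctamin membrane protein) by 2.14 ± 0.22 (adjusted p = 0.0017 and 0.0020). The Ano4 log2 change ranged from -2.34 to -0.73 over all alternatives. Pnliprp1 (a lipase-related protein) fell by 2.74 ± 0.37 and the noncoding RNA Sox2ot by 3.18 ± 0.54 (adjusted p = 0.0049 and 0.010). Cela1 (an elastase) fell by 2.22 ± 0.19 by its brightest probe (adjusted p = 0.00091), but another probe changed by 2.72 (adjusted p over probes = 0.014), so the gene has no settled direction. Plcxd3 was likewise -1.13 by the brightest probe and 0.84 and 0.74 by others, Mlip was -2.96 and 0.33, and Pstpip1 was -2.95 and -0.05. Of the falls in this paragraph, Henmt1 lost its call without any 1 of the KO arrays (-4.36 to -3.40), Spry3 without KO sham replicate 1 or 3, and Mlip without any KO sham array or KO IRI replicate 3. Cox6a2 (a heart and muscle subunit of cytochrome oxidase) fell by 3.16 ± 0.73 (adjusted p = 0.033), a call lost without any KO array except KO IRI replicate 2.

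Hormone and phosphate genes held 3 lower and 1 higher of 19. Fgf23 (fibroblast growth factor 23, a phosphate-lowering hormone made mainly in bone) read 1.44, 2.66 and 1.5 in KO sham and 0.07, -1.74 and -0.05 in KO IRI (log2 change -2.44 ± 0.47, adjusted p = 0.016, lost without KO sham replicate 2). With the 6 KO arrays alone its call was also lost. Cyp24a1, which inactivates vitamin D, read 1.98, 2.96 and 1.74 in KO sham and 0.78, 0.20 and 1.06 in KO IRI (-1.55 ± 0.37, adjusted p = 0.037, lost without any KO array or WT sham replicate 1 or 2). Ednrb (an endothelin receptor) rose by 0.73 ± 0.15 (adjusted p = 0.021, lost without KO sham replicate 2 or KO IRI replicate 2 or 3). Eif4ebp1 (a repressor of translation initiation) rose by 1.06 ± 0.22 (adjusted p = 0.020) and was the only called member of 16 genes of ribosome biogenesis and translation. Ciart (a repressor in the circadian clock) fell by 2.09 ± 0.54 (adjusted p = 0.047) and was the only called member of 15 clock genes; Eif4ebp1 lost its call without any 1 of the KO arrays and Ciart without 9 of the 12 arrays or under quantile normalization or median scaling. Of 12 glucocorticoid response genes only Lcn2 passed.

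Transcripts that mark tissues next to the kidney were checked on the same arrays. Of 10 adipocyte genes only Cidec, a lipid droplet protein, passed (log2 change 2.89 ± 0.51, adjusted p = 0.012, lost without KO sham replicate 1 or 3). The list's median was -0.17, against 0.09 with 2 called higher without KO sham replicate 2 and -0.08 with 1 called higher without KO IRI replicate 3. Adipoq, the defining adipocyte hormone, read a mean of -3.25 in KO sham and -4.03 in KO IRI (adjusted p = 0.81). The adipocyte list ranged from -0.81 to 1.05 over sham arrays and from -0.71 to 0.79 over injured arrays, and its part in the Cidec result was not tested. Of 7 hepatocyte genes Trf (transferrin) and Apoa1 were higher, by 2.08 ± 0.40 and 1.79 ± 0.33 (adjusted p = 0.017 and 0.014), and Ttr (transthyretin) was lower by 1.46 ± 0.20 (adjusted p = 0.0051), its other probe changing by -2.86. Ttr kept its call without any 1 array, Apoa1 lost it without KO sham replicate 2 or 3 or under normexp background correction (0.53), and Trf without any KO sham array or KO IRI replicate 3. Alb, the defining hepatocyte gene, changed by -0.49 (adjusted p = 0.15). Of 9 erythroid, 5 adrenal cortex and 7 skeletal muscle genes 0 passed in limma. Ahsp (a hemoglobin chaperone), Hsd3b1 (a steroid dehydrogenase) and Acta1 (skeletal actin) changed by -1.74, -1.35 and 0.40 (adjusted p = 0.052, 0.25 and 0.56). The adrenal genes Cyp11a1 and Cyp11b1 and the muscle gene Ckm had probes that were too dim to be tested. Hba-a1, an alpha globin, changed by 0.52 (adjusted p = 0.50).

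**Figure D4:**
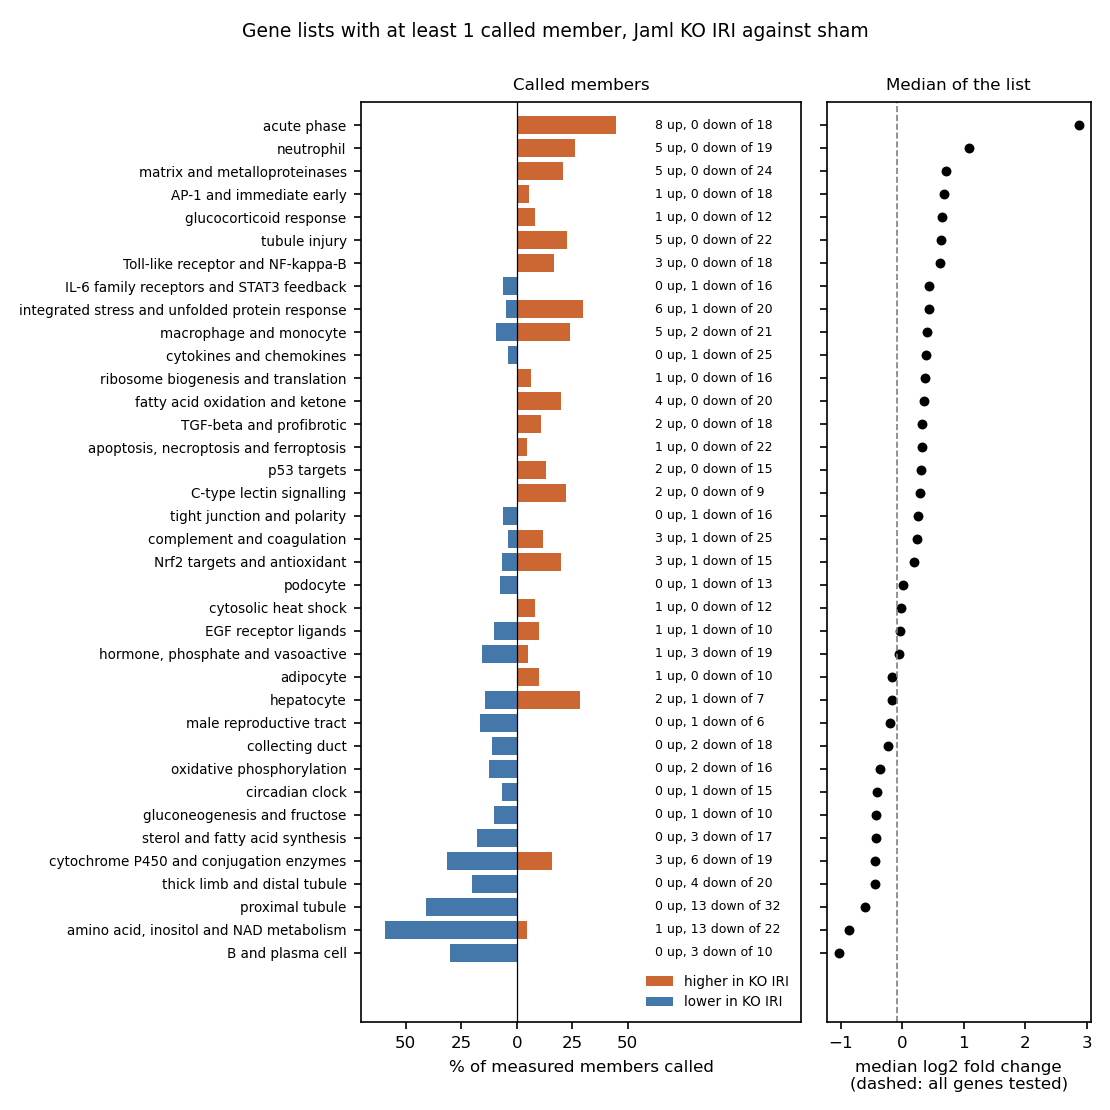
Gene lists with at least 1 called member in KO IRI against KO sham. The left panel gives the percent of measured members called higher (orange, to the right) and lower (blue, to the left), and the right panel the list's median log2 fold change, with the median of all genes (-0.08) dashed; acute phase genes have the highest median (2.86), and the amino acid, inositol and NAD list has 13 of 22 members called lower.

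The response was set beside that of WT kidneys measured on the other slide. In WT, 3109 genes passed (12.0%). Of the KO calls, 348 were called higher and 476 lower in both genotypes (824 genes, 51.6% of the KO calls and 26.5% of the WT calls), 8 were called in opposite directions, and 766 were not called in WT. A call in 1 genotype alone does not show a difference. The difference of the responses, tested as the interaction, passed for 18 of 25947 genes (0.0694%), and 9 of the 1598 KO calls were among them. C3 had a log2 change of 3.20 in KO and -0.50 in WT, with a difference of 3.70 that did not pass (adjusted p = 0.15). The C3 difference passed with array weights or without WT IRI replicate 1, 2 of 23 alternatives. Saa3 had 7.29 in KO, where it was not above background in sham, and 3.43 in WT (difference 3.86, adjusted p = 0.067, and -0.08 under normexp background correction). Ihh read 2.16, 2.13 and 2.13 in KO sham and 3.47, 3.37 and 3.46 in KO IRI, against a WT change of 0.24, and the difference of 1.05 ± 0.15 passed (adjusted p = 0.049), a call lost under 18 of 23 alternatives, among them leaving out any 1 of the KO arrays. For the large majority of the KO response, including Lcn2 (5.64 in KO and 5.27 in WT) and Lgi2 (5.04 and 5.06), the difference did not pass, which does not show that the responses were equal. T and NK cell genes had a median change of -1.13 in KO and -3.18 in WT, with 0 of 17 differences past the threshold.

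**Figure D5:**
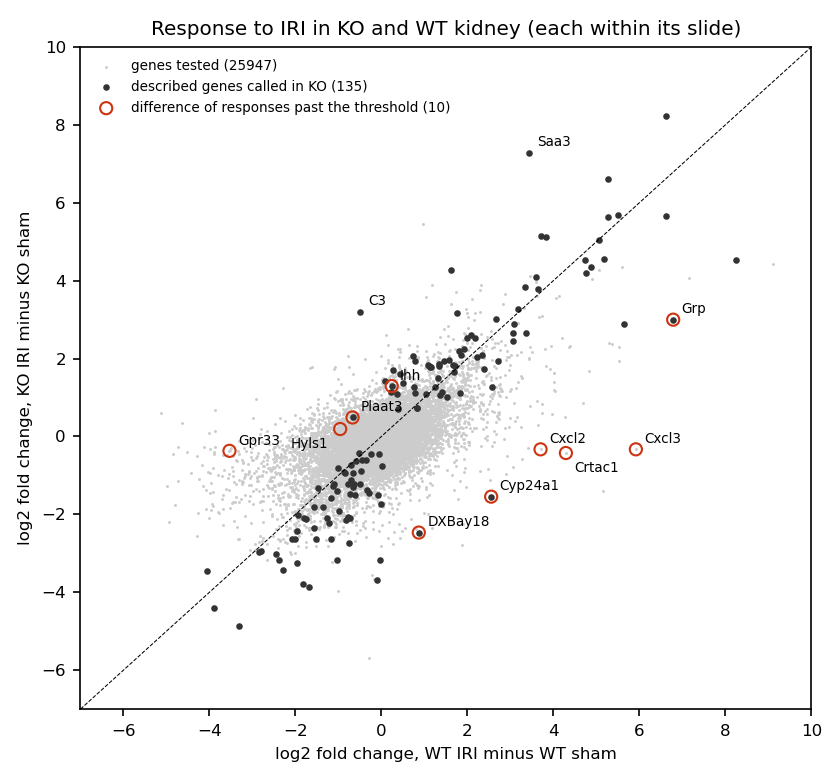
Log2 fold change after IRI in WT (horizontal) and KO kidney (vertical), each within its own slide, for 25947 genes (grey); black points are the 135 described genes called in KO, circles the 10 described genes whose difference of responses passed, and the dashed line marks equal changes. Cxcl3, Cxcl2 and Crtac1 lie far right of the line at KO changes of -0.33, -0.33 and -0.42.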

How the data were processed

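Total kidney RNA of 12 male mice in 4 groups of 3 was labelled with Cy3 and hybridised to 1-colour Agilent arrays, per the labels' protocols. The deposited scanner files hold a processed signal intensity per spot and flags, which per the file headers came from Feature Extraction version 10.7.1.1 of Agilent. The authors' value table holds log2 values that follow the log2 processed signals with r of at least 0.9995 on each array and share nearly the same median (5.71); the submitters' processing notes name limma, but no source used here gives the normalization.

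Here, control spots and outlier flags were left out, spots of a probe averaged, and log2 intensity was taken relative to each array's 75th percentile. Probes well above background on at least 3 of 12 arrays were kept (39449 of 56605), and the brightest kept probe represented its gene. RefSeq accessions gave 32994 probes a current symbol; 23611 kept the file's name. limma 3.58.1 (R 4.3.3) fitted 1 mean per group over all 12 arrays (8 residual degrees of freedom), with Benjamini-Hochberg adjusted p below 0.05 as a call; the interaction was the KO minus the WT response. The number of arrays limits the precision. On simulated data the fit of KO IRI against KO sham recovered 48% of 100 genes changed 2-fold and 67% of 100 changed 4-fold, with 9 false calls among 25928 genes. A gene well above background on no array of the dimmer group is given as a lower bound, Clec4e aside. A gene well above background on some arrays of that group keeps its fitted change. Where such a bound is given as "at least", it sets the brighter group's mean against the mean, per array of the dimmer group, of the higher of the lowest well-measured signal and the probe's own.

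The comparison and the 46 gene lists were chosen with earlier results of these data known. Genes are named by rule: Jaml, Havcr1, Lcn2 and Clec4e; the 15 largest changes and the 10 smallest p in each direction (ordinary symbols, groups not overlapping, above background in the higher group); per list up to 5 called members in the main direction and 2 in the other, or 2 with the smallest p where none was called; and up to 6 interaction genes per direction. A few genes that the rule names are not reported here. Tissue markers, and called list members given without values, are named beside these. Alternatives were background correction, scaling, the filter on dim probes, the mean of a gene's probes, array weights, replicate or slide blocks, the KO arrays alone, and leaving out each array; 2 were added after seeing the data. Promoter sequences are RefSeq's (GRCm38.p6), searched with Python 3 scripts. p-values measure only the spread between these samples.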

Additional observations from a re-analysis of the deposited data

Results flagged for a closer look

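The difference between the KO and the WT response to IRI passed limma's adjusted p of 0.05 for 18 genes, of which 10 were described by rule. KO and WT arrays lay on separate slides, each response being taken within its slide. All values are log2 differences, KO response minus WT response.

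For 4 genes no KO array was well above background, so that their KO response is not a measured change. Cxcl3 and Cxcl2, chemokines that attract neutrophils, differed by -6.25 and -4.03 (adjusted p = 0.0059 for each), with WT responses of 5.92 and 3.70 and KO values between -8.57 and -7.89 on the log2 scale. Crtac1, a cartilage matrix protein, differed by -4.72 (adjusted p = 0.014), with a WT response of 4.29. Gpr33, a receptor of the chemoattractant receptor family, differed by 3.17 (adjusted p = 0.023), with a WT response of -3.53. Their differences shrank under normexp background correction, to -2.04 for Cxcl3, -0.83 for Cxcl2, -1.14 for Crtac1 and 0.20 for Gpr33, none of which passed. Crtac1 also lost its call without WT sham replicate 1 or KO sham replicate 1 or 3, and Gpr33 without WT sham replicate 1, WT IRI replicate 3 or any KO array except KO IRI replicate 3.

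For 6 genes the KO arrays held a measured change or level. Cyp24a1 differed by -4.10 ± 0.52 (adjusted p = 0.023): it read 1.98, 2.96 and 1.74 in KO sham and 0.78, 0.20 and 1.06 in KO IRI, against 1.55, 1.44 and 2.27 in WT sham and 4.43, 3.87 and 4.63 in WT IRI. Every injured WT kidney thus lay above, and every injured KO kidney below, the sham kidneys of its genotype. DXBay18 differed by -3.34 (adjusted p = 0.023), with responses of -2.47 in KO and 0.87 in WT. Grp, the gastrin-releasing peptide precursor, differed by -3.79 (adjusted p = 0.043), with at least a 1.69-fold rise in KO and a WT response of 6.79. Ihh differed by 1.05 (adjusted p = 0.049), Plaat3, a phospholipase, by 1.16 (adjusted p = 0.023; responses 0.49 and -0.67) and Hyls1, a centriole protein, by 1.15 (adjusted p = 0.023; responses 0.19 and -0.96). The call was lost under 8 of 23 alternatives for Cyp24a1, 10 for DXBay18, 11 for Hyls1, 12 for Plaat3, 13 for Grp and 18 for Ihh. Among these, leaving out KO sham replicate 1 or KO IRI replicate 1 or 2, or WT sham replicate 1, ended the call of each of the 6 genes.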

How the results depend on the processing

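The 1598 calls of KO IRI against KO sham (546 higher, 1052 lower) became 2442 with the 6 KO arrays alone (892 higher), 2659 with those arrays and a filter on them alone (988 higher, 1671 lower; added after seeing the data), 5756 with array weights (2037 higher, 3719 lower) and 1065 under median scaling (432 lower). Without a filter on dim probes 360 were higher. Calls lost with the 6 KO arrays alone included those of Havcr1, Egr2, Trib3, Ndufb8, Itgam, Mlip, Fgf23 and Cyp24a1. Leaving out 1 array gave 454 to 3250 calls (150 to 1183 higher, 304 to 2067 lower). The other alternatives, among them normexp, quantile normalization and the authors' log2 values, stayed within 1.5 times, though the split changed as the report gives.

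Replicate numbers were not taken as pairs. Deviations of same-numbered arrays correlated at -0.163, -0.267 and -0.006 in KO and at -0.152, 0.151 and 0.082 in WT. So few values, from small groups, cannot exclude a pairing. A replicate block gave 1153 calls and 5 interaction genes, and a replicate block in the 6 KO arrays alone 256 (116 higher, 140 lower).

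The 18 interaction genes became 37 under normexp, 9 with the mean of a gene's probes, 1353 with array weights, and 4 to 148 without 1 array.

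Of 135 described genes called, 133 kept their sign under all of the 26 alternatives that could be computed for them (25 for 3 genes) and 35 of the 135 also their call; 5 lost it in more than 13 of them. Cela1 (0.25) and Plcxd3 (0.15) reversed with the mean of their probes. Among uncalled genes Mc2r (-0.16), Mb (-0.15) and Hyls1 (-0.054) reversed under normexp, as did the Saa3 difference between genotypes (-0.076). The causes were not tested. Dim probes limit the folds: signals near background have no lower end here.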
